A study of Mus musculus with 40 samples.

Results

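Glioma-associated microglia and macrophages (GAMs) are myeloid cells of the brain and blood that gather in gliomas, carry the integrin subunit CD11b and respond to ligands of the tumor. 7aaRGD is a synthetic peptide with the Arg-Gly-Asp motif, through which SPP1 (osteopontin) and MFGE8 bind the αvβ3 and αvβ5 integrins. It was designed to block that binding. The data described here are the RNA levels of CD11b+ cells from GL261 gliomas at 28 days post implantation (28 DPI), in 4 mice given 7aaRGD and 4 mice given vehicle, and these 8 samples are part of 40 in the series. They were taken as the 7aaRGD and solvent columns of the 28 DPI table, and the comparison asks what the peptide alone did to these cells.

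Per the study's methods, all mice carried GL261 tdTomato+luc+ cells, a mouse glioma line that was implanted into the brain. By the same methods they were male C57BL/6 mice of 10 to 12 weeks. The labels of the 28 DPI samples call them nude mice and name no tumor line. The vehicle group received water and the 7aaRGD group received 2 mg/ml of the peptide, both through an osmotic pump into the tumor for 28 days, and both also received a control IgG by injection. Each sample was 1 animal, and CD11b+ cells were sorted from the tumor-bearing hemisphere. An anti-PD-1 group and a 7aaRGD plus anti-PD-1 group, with 3 analysed samples each, came from the same experiment and table. Replicate 4 of both groups was not analysed here. No group of the 28 DPI table received 7aaRAE, the study's control peptide with a changed motif. Effects of the motif and of any infused peptide therefore cannot be told apart here.

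Levels are given as RPKM, a read count scaled to exon length and library size, after a constant of 2 in the table was subtracted. The 9734 protein-coding genes whose mean over the 14 samples reached 1 RPKM were compared on the log2(RPKM + 1) scale with limma, in a single model of the 4 groups. Fold changes are on that scale, which understates the change of low genes, and adjusted p-values are Benjamini-Hochberg values over all 9734 genes. The depth of the libraries is unknown because no counts were used here. Between 9550 and 9817 protein-coding genes reached 1 RPKM in each of the 8 samples. Pearson correlations were 0.988 to 0.991 within vehicle, 0.984 to 0.990 within 7aaRGD and 0.980 to 0.991 between the groups. Itgam, which encodes CD11b, lay between 57.8 and 82.2 RPKM in the 8 samples. The T cell gene Cd3e stayed at or below 0.114 RPKM.

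With 7aaRGD, 42 of 79 tested genes of cytosolic ribosomal proteins were lower at an adjusted p under 0.05. A small set of genes led by the chemokines Ccl7 and Ccl2 was higher at the same threshold. Of 9734 genes, 51 were lower and 12 were higher with 7aaRGD at an adjusted p under 0.05, which is 0.524% and 0.123% of the genes tested. Of the 51 lower genes, 42 encode proteins of the cytosolic ribosome. In none of the 63 genes did the 4 samples of one group overlap those of the other, and over all genes the groups were apart in 3.97% upward and in 4.04% downward. The median log2 fold change of all genes was 0.01.

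These calls lay close to the threshold, with adjusted p-values from 0.0318 to 0.0493, and they were not stable. Leaving out any of the 8 animals in turn left 0 or 1 gene past the threshold, a fit of the 8 samples alone left 0 and TMM scaling left 0. The table's residuals held 9 of the 10 dimensions that 14 samples in 4 groups should give, and a fit with 1 residual degree of freedom less also left 0 genes. The signs of the fold changes were the same in these fits for all 63 genes, but only TMM scaling could have turned one. Leaving out an animal cannot turn the sign of a gene whose groups do not overlap. The remaining fits had the same fold changes as the main one.

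**Figure D1:**
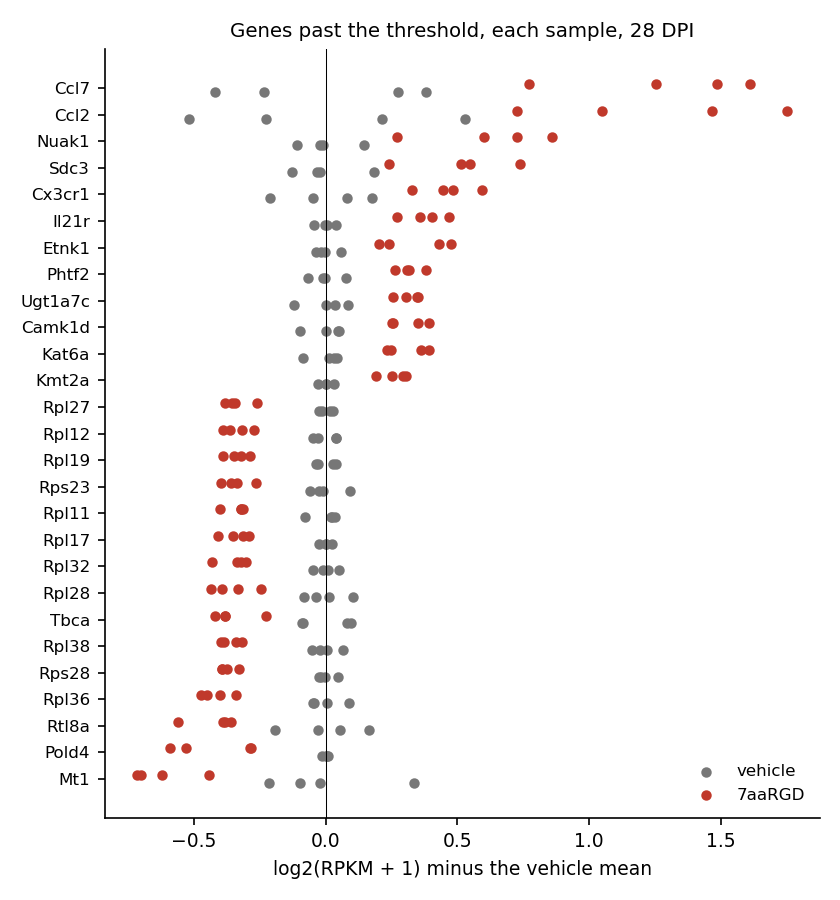
Values of each sample for the 12 genes that were higher and the 15 lower genes of largest change, as log2(RPKM + 1) minus the vehicle mean of the gene (horizontal axis), with 4 vehicle samples in grey and 4 7aaRGD samples in red. The red points of Ccl7 and Ccl2 lie furthest to the right and are spread most, and the ribosomal genes form a narrow band near -0.35.

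Cytosolic ribosomal proteins build the large (Rpl) and small (Rps) subunits of the ribosome and are made in equal numbers in growing cells. Their messages start with a short run of pyrimidines, the 5′ terminal oligopyrimidine tract, through which the mTOR pathway adjusts their translation and stability together. A gene was counted when any of its annotated starts had a C within 2 bases, followed by at least 4 bases each C or T. Genes with more annotated starts thus had more chances to be counted. The motif was present in 21 of the 59 tested ribosomal protein genes with an entry in the RefSeq promoter table (35.6%). It was present in 10 of the 31 that were past the threshold (32.3%) and in 962 of 7838 tested genes with an entry (12.3%). Of the other genes past the threshold with an entry, 1 of 7 lower ones (14.3%) and 1 of 9 higher ones (11.1%) held it. Whether the tract bears on the decrease was not tested. The annotated start can lie beside the used start, so a start without the tract in this window says nothing about the message itself. The following windows of GRCm38.p6 show 20 bases before and 10 bases from a RefSeq start on the gene's strand. Where any start of a gene held the tract, such a start is shown, and the capitals mark the tract. They are shown for 8 ribosomal protein genes named among the 15 largest decreases, those with a window to print, in order of their change.
Rps28, chr17:33824553-33824582, - strand: tcctgggtaccgcgtgcggtctcgcgagag
Rpl38, chr11:114668560-114668589, + strand: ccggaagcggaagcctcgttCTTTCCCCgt
Rpl28, chr7:4792945-4792974, + strand: tcgtcccgcctctcgtgtctCTCTTTCCgt
Rpl11, chr4:136053384-136053413, - strand: gcctcctgacccataaggccacggggccgg
Rps23, chr13:90923102-90923131, + strand: acggggccttcggctgggcggggcttcccg
Rpl19, chr11:98026690-98026719, + strand: ccacgtgaccaaacgccctcactgcgcatg
Rpl12, chr2:32961692-32961721, + strand: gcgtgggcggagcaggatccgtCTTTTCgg
Rpl27, chr11:101442225-101442254, + strand: ccggaacgctctgttcctgtctgctgctcg
Rpl38 and Rpl28 held the tract at the annotated start itself and Rpl12 held it 2 bases downstream, while the other 5 held none in this window.

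Of 79 tested ribosomal protein genes, 42 were lower past the threshold and none was higher, beside 0.524% of all genes that were lower. The log2 fold change was below 0 in 77 of the 79 (45.6% of all genes), and the groups were apart downward in 70 (4.04% of all genes). The list median was -0.29. The large subunit had 27 of 48 genes past the threshold with a median of -0.29, and the small subunit had 15 of 31 with a median of -0.29. The genes above 0 were Rpl7l1 at 0.08 and Rps27l at 0.01, paralogs of Rpl7 and Rps27. Ribosomal protein genes have many near-identical pseudogenes, so the level of each single gene is uncertain where reads could be shared.

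Summed over the list, the ribosomal protein genes held 37027, 36178, 35706 and 35707 RPKM in vehicle replicates 1 to 4. They held 29360, 30098, 30003 and 28776 RPKM in 7aaRGD replicates 1 to 4. The groups were far apart compared with their spread, at 36154 ± 623 (SD, n = 4) and 29559 ± 617 (SD, n = 4), a level 18.2% below vehicle. As a share of exon signal, which is RPKM times exon length, they fell from 5.81% ± 0.123 to 4.79% ± 0.119 (SD, n = 4 each). These are bulk samples, so a decrease within cells and another mix of CD11b+ cells cannot be told apart.

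Rpl36, a large subunit protein, had the largest decrease of the list before a correction for gene length. Under the correction its log2 fold change was -0.22, smaller than those of Rpl12 (-0.33), Rpl11 (-0.31) and Rps28 (-0.30). The length used sums all annotated exons, at 383 bases for Rpl36 and 3598, 2697 and 1719 bases for Rpl12, Rpl11 and Rps28. Rpl36 lay at 1379, 1255, 1303 and 1260 RPKM in vehicle and at 1026, 936, 983 and 949 RPKM with 7aaRGD (log2 fold change -0.42 ± 0.06 SE, adjusted p = 0.0318). Rps28 of the small subunit lay at 236, 240, 248 and 237 RPKM in vehicle and at 191, 183, 183 and 185 RPKM with 7aaRGD (log2 fold change -0.37 ± 0.06, adjusted p = 0.0318). Rpl38 went from 649 ± 22.6 to 505 ± 13 RPKM (SD, n = 4) and Rpl28 had a log2 fold change of -0.35. Rpl32, Rpl17, Rpl11, Rps23, Rpl19, Rpl12 and Rpl27, also among the 15 largest decreases, had log2 fold changes of -0.35 to -0.34. The mean vehicle levels of the 79 genes ranged from 2.81 to 2828 RPKM.

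**Figure D2:**
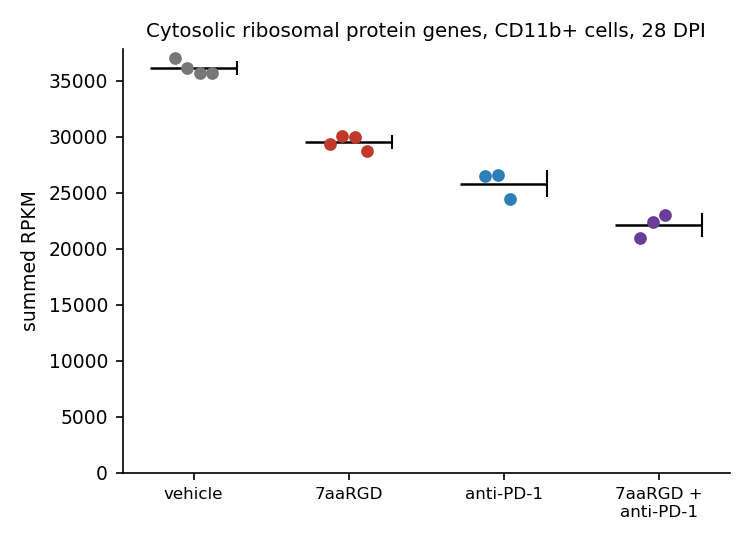
Summed RPKM of the cytosolic ribosomal protein genes (vertical axis, from 0) in each sample of the 4 groups of the 28 DPI table, with the group mean as a horizontal line and the SD as a vertical bar. The 4 7aaRGD samples lie between 28776 and 30098, below all 4 vehicle samples, and the 3 combination samples lie lowest.

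The other 9 lower genes were named after their values were seen, beyond those of largest change. Eif3h and Eif3k encode subunits of initiation factor eIF3, Btf3 encodes a part of the nascent polypeptide-associated complex that sits on the ribosome, and Nsa2 acts in large subunit assembly. Eif3h fell from 210 ± 3.62 to 171 ± 13.9 RPKM (SD, n = 4) and Btf3 from 144 ± 4.10 to 121 ± 2.27 RPKM. Nsa2 fell by 0.33 and Eif3k fell by 0.25 on the log2 scale. A list of 19 translation factors and other messages of the ribosomal class was also chosen after the values were seen. Its 2 members past the threshold (0.524% of all genes) were Eif3h and Btf3, already named above, so they are not further calls. The list had 18 members below 0 (45.6% of all genes) and a median of -0.19. Its strongest gene, the elongation factor Eef1a1, was at 4021 RPKM in vehicle and 3571 RPKM with 7aaRGD with an adjusted p of 0.272. Eif4b, at a log2 fold change of 0.03, was the member above 0.

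Mt1, a metallothionein that binds zinc and copper, had the largest decrease of all genes past the threshold. It lay at 134, 104, 90.9 and 98.9 RPKM in vehicle and at 77.5, 64.7, 64.1 and 68.5 RPKM with 7aaRGD (log2 fold change -0.62 ± 0.11 SE, adjusted p = 0.0337). Its neighbor and paralog Mt2 did not pass the test, at 25.5 and 21.5 RPKM. Pold4, the smallest subunit of DNA polymerase delta, was nearly equal in the 4 vehicle samples at 63.5 to 64.5 RPKM and was at 42.2 to 52.5 RPKM with 7aaRGD. The tubulin cofactor Tbca fell from 68.5 ± 4.98 to 53.3 ± 3.32 RPKM (SD, n = 4). Rtl8a, a retrotransposon-derived gene of the X chromosome with close copies, fell by 0.42 on the log2 scale, and Apopt1, which encodes a factor of cytochrome c oxidase assembly, fell by 0.27.

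The lower genes were short. Their median exon length was 1684 bases, against 5807 bases for the 12 higher genes and 4434 bases for all genes tested. The fold change moved with exon length across the whole transcriptome, with a Spearman coefficient of 0.365 across 9734 genes, and of 0.356 across the 9655 genes that are not ribosomal. Genes of one sample are not independent replicates, so this is a description only. When genes were split by length into 10 bins of equal size, the changes climbed from bin to bin. In the shortest bin, up to 1761 bases and without the ribosomal ones, 73.6% were lower with 7aaRGD and the median log2 fold change was -0.10. In the longest bin, from 9723 bases, 18.9% were lower and the median was 0.09. The median level of the shortest bin minus that of the longest, on the log2 scale and relative to the mean of the 8 samples for each gene, was 0.07 to 0.16 in the 4 vehicle samples and -0.12 to -0.05 in the 4 7aaRGD samples, so this measure too did not overlap between the groups.

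The ribosomal genes were lower than other genes of similar summed exon length. The 3529 other genes within the length range of the ribosomal genes, their longest ones left out, had a median of -0.05, with 7 past the threshold and lower. In the shortest bin, which held 37 of the 79 ribosomal genes, the other genes had a median of -0.10. After each sample was corrected for a smooth trend with exon length, 76 of the 79 ribosomal genes stayed below 0 and 65 were lower at an unadjusted p under 0.05, against 74 before (6.56% of all genes before the correction). Over all 9734 genes, 1421 had an unadjusted p under 0.05 in either direction before the correction and 1151 after it. The ribosomal median was then -0.21, and none of the 79 passed the adjusted threshold. Ccl7 was the single gene of all that passed under this correction. Exon length here sums all annotated exons of a gene and can exceed that of its message, which this correction does not allow for. What made the change depend on length was not tested.

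**Figure D3:**
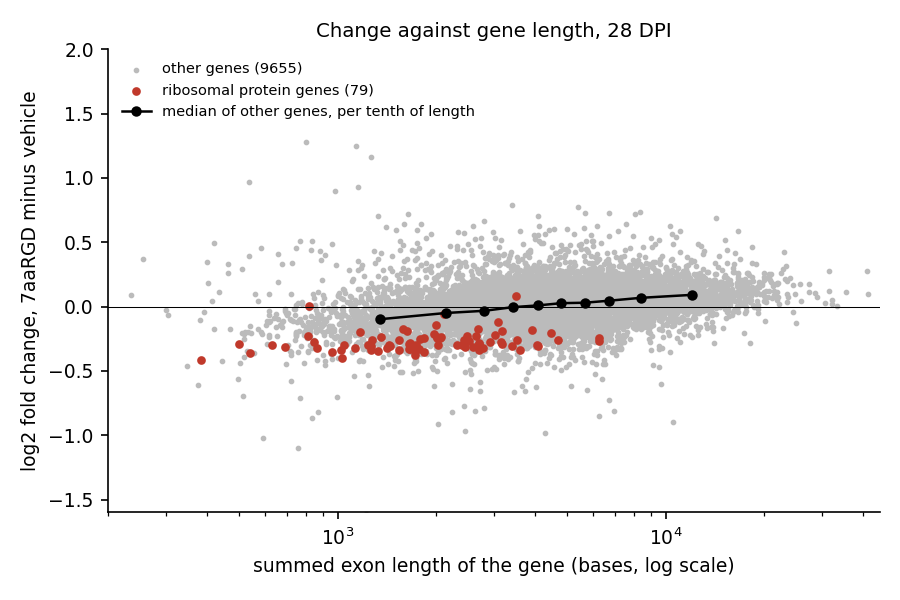
Log2 fold change of each gene, 7aaRGD minus vehicle (vertical axis), against its summed exon length in bases (horizontal log axis), for 9655 other genes in grey and 79 ribosomal protein genes in red, with the median of the other genes in each of 10 bins of length in black. The black line climbs from -0.10 to 0.09, and nearly all red points lie below it. The neutrophil gene Ngp, at -1.61, and 1 gene shorter than 200 bases lie outside the axes.

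Further lists of short genes did not reach the threshold. Among 78 nuclear genes of oxidative phosphorylation, which make the respiratory chain of mitochondria, 70 were below 0 (45.6% of all genes) and the groups were apart downward in 21 (4.04% of all genes), with a median of -0.13 and none past the threshold. Cox4i1 of complex IV lay at 204 ± 3.22 and 183 ± 9.63 RPKM (SD, n = 4, adjusted p = 0.202), and Cox8a, Cox6a1 and Cox6b1 had log2 fold changes of -0.22, -0.07 and -0.05. Corrected for length, the median of this list was -0.05. Among 77 mitochondrial ribosomal protein genes 63 were below 0 (45.6% of all genes), with a median of -0.10, or -0.046 corrected for length, and none past the threshold. Mrpl2 lay at 37.2 to 39.1 RPKM in vehicle and at 32.4 to 33.2 RPKM with 7aaRGD (adjusted p = 0.107). Mrpl52, Mrpl54 and Mrps21 had log2 fold changes of -0.15, -0.20 and -0.07.

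Ccl7 and Ccl2 encode chemokines that bind CCR2 and draw monocytes into tissue, and they are neighbors on chromosome 11 (mm10, chr11:82045712-82047525 and chr11:82035571-82037453, both on the + strand). Ccl2 lay at 7.29, 9.15, 16.2 and 12.8 RPKM in vehicle and at 31.8, 23.6, 18.7 and 39.0 RPKM with 7aaRGD (log2 fold change 1.25 ± 0.23 SE, adjusted p = 0.0342). Ccl7 lay at 2.68, 3.18, 5.4 and 4.94 RPKM in vehicle and at 10.7, 12.8, 7.39 and 14 RPKM with 7aaRGD (log2 fold change 1.28 ± 0.19 SE, adjusted p = 0.0318). Both rose in every 7aaRGD sample above every vehicle sample, and replicate 3 was the lowest 7aaRGD sample in both.

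Of 12 CC chemokines tested, these 2 passed the threshold (0.123% of all genes were higher), 8 were above 0 (54.4% of all genes) and the list median was 0.33. Without 7aaRGD replicate 1 or 4 the median was 0.20 or 0.21. Ccl12, a mouse chemokine of the same cluster named here after its values were seen, lay at 56.4, 59.2, 74.2 and 50.4 RPKM in vehicle and at 122, 97.4, 66.1 and 238 RPKM with 7aaRGD. Its groups overlapped through 7aaRGD replicate 3 and its adjusted p was 0.141. Ccl3 had a log2 fold change of 0.51 and Ccl5, a chemokine of T and NK cells, had -0.41, with adjusted p-values of 0.244 and 0.566.

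Cx3cr1, the fractalkine receptor that marks microglia, rose from 273 ± 31.5 to 375 ± 28.5 RPKM (SD, n = 4), with a log2 fold change of 0.46 ± 0.09 (SE, adjusted p = 0.0342). Vehicle samples lay at 263, 307, 288 and 234 RPKM and 7aaRGD samples at 380, 371, 341 and 410 RPKM, with no overlap. It was the single member past the threshold among 8 tested chemokine receptors (0.123% of all genes were higher), where Cxcr4 had a log2 fold change of -0.35 and Ccr1 of -0.23 without passing the test. It was also the single member past the threshold among 23 genes of homeostatic microglia.

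The homeostatic microglia genes are those that resting microglia express and that fall when the cells are activated. Of these 23 genes, 21 were above 0, with a median log2 fold change of 0.40 against 0.01 for all genes. In bulk samples, more cells of a type and more RNA per cell cannot be told apart. Tmem119, a surface marker of microglia, lay at 230, 325, 244 and 172 RPKM in vehicle and at 287, 260, 332 and 442 RPKM with 7aaRGD (adjusted p = 0.275). Cst3 and Csf1r had log2 fold changes of 0.19 and 0.25.

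7aaRGD replicate 2 stayed within the vehicle range for the microglia list and replicate 4 exceeded it most. The summed level was 4323, 5320, 4301 and 3883 RPKM in vehicle and 5852, 4062, 5580 and 6979 RPKM with 7aaRGD. Fcrls, a microglial Fc receptor-like gene, was high in replicate 4, at 43.3 to 71.6 RPKM in vehicle, 62.5 to 65.2 RPKM in 7aaRGD replicates 1 to 3 and 204 RPKM in replicate 4. Without replicate 4 the list median was 0.20 and without replicate 2 it was 0.55.

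**Figure D4:**
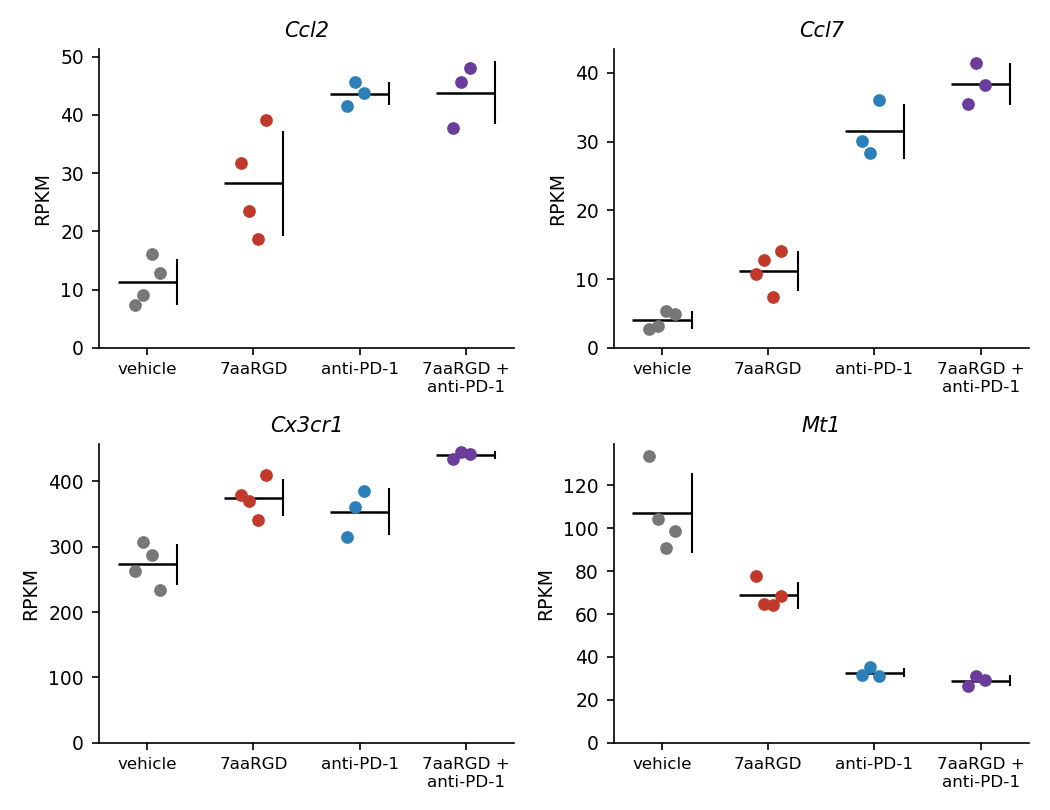
RPKM of Ccl2, Ccl7, Cx3cr1 and Mt1 (vertical axes, from 0) in each sample of the 4 groups, with the mean as a horizontal line and the SD as a vertical bar. The 4 7aaRGD samples lie above all vehicle samples for the first 3 genes and below them for Mt1.

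The remaining 9 higher genes have varied roles. Nuak1, an AMPK-related kinase, rose from 9.65 ± 0.791 to 15.5 ± 2.74 RPKM (SD, n = 4, log2 fold change 0.61 ± 0.11 SE). Sdc3, a heparan sulfate proteoglycan of the cell surface, rose from 93.6 ± 8.90 to 134 ± 18.8 RPKM. Il21r, the receptor of the lymphocyte cytokine IL-21, was at 29.6 to 31.5 RPKM in vehicle and at 37.2 to 42.7 RPKM with 7aaRGD. The group also held regulators of chromatin. Kat6a, a histone acetyltransferase, rose by 0.31 on the log2 scale, and Kmt2a, a methyltransferase of histone H3, rose by 0.26, from 5.16 ± 0.104 to 6.38 ± 0.264 RPKM. Both are long, at 9180 and 16670 bases, in bins of length where 73.2% and 81.1% of the genes that are not ribosomal were higher. With the length correction their changes were 0.24 and 0.15, and neither passed the threshold. Etnk1, an ethanolamine kinase, Phtf2, Camk1d, a calcium/calmodulin-dependent kinase, and Ugt1a7c rose by 0.31 to 0.34. Ugt1a7c shares exons with other Ugt1a genes, so its level is uncertain.

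The genes of the peptide's targets did not pass the test. Itgav encodes the αv chain and lay at 9.53, 9.85, 10.6 and 10.1 RPKM in vehicle and at 11, 14.4, 10.3 and 12.9 RPKM with 7aaRGD (log2 fold change 0.24 ± 0.09 SE, adjusted p = 0.248). Itgb3, the β3 chain, was spread more widely with 7aaRGD, at 5.4, 1.58, 3.56 and 8.16 RPKM, than in vehicle, at 2.49 to 5.03 RPKM. Itgb5, the β5 chain, was much the most abundant of the 3 per kilobase, at 321 ± 40.9 RPKM in vehicle and 374 ± 48.8 RPKM with 7aaRGD (SD, n = 4, adjusted p = 0.364). Among the 5 tested genes of integrin subunits that bind the Arg-Gly-Asp motif, all 5 were above 0, with a median of 0.12, or 0.19 without vehicle replicate 3, and none past the threshold. Itgb1 and Itga5 had log2 fold changes of 0.12 and 0.11.

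Of the integrin ligands, Spp1 lay at 206, 407, 244 and 242 RPKM in vehicle and at 340, 269, 189 and 541 RPKM with 7aaRGD, and the groups overlapped (log2 fold change 0.23 ± 0.32 SE, adjusted p = 0.780). Mfge8 lay at 5.34 ± 0.668 and 4.51 ± 1.41 RPKM (SD, n = 4, adjusted p = 0.536). Tgfbi, a matrix protein with an Arg-Gly-Asp motif, lay at 1318 ± 204 and 1093 ± 217 RPKM (adjusted p = 0.415). Of 8 tested ligand genes, 4 were above 0 and 4 below, with none past the threshold and a median of 0.10, which was -0.039 without 7aaRGD replicate 4 and -0.0024 without vehicle replicate 3. Fn1 had a log2 fold change of 0.32 and Tgfb1 of -0.03.

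Genes used as markers of immunosuppressive GAMs overlapped between the groups. Arg1, which depletes arginine, lay at 199, 287, 148 and 424 RPKM in vehicle and at 407, 132, 163 and 227 RPKM with 7aaRGD (log2 fold change -0.21 ± 0.57 SE, adjusted p = 0.897). Chil3 lay at 93.9 to 234 RPKM in vehicle and at 74.9 to 745 RPKM with 7aaRGD, and the mannose receptor Mrc1 at 73.9 to 113 RPKM and 66.3 to 161 RPKM. 7aaRGD replicate 1 held the highest Arg1, Chil3 and Mrc1 of its group. Of the 17 tested genes of alternative activation, 6 were above 0 and 11 below, with a median of -0.08 and none past the threshold. The median was -0.21 without 7aaRGD replicate 1, -0.20 without vehicle replicate 1, -0.022 without vehicle replicate 3 and 0.024 without 7aaRGD replicate 2. Ecm1 and Il4ra had log2 fold changes of 0.10 and 0.17. The checkpoint ligand gene Cd274 lay at 42.3 ± 11.1 and 33.8 ± 7.22 RPKM, and the co-stimulatory Cd80 at 5.64 ± 0.930 and 4.70 ± 0.789 RPKM (SD, n = 4, adjusted p = 0.514 and 0.428).

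MHC class II presents antigen to CD4+ T cells, and 8 of its 10 tested genes were below 0, with a median of -0.33 and none past the threshold. Summed over the list, vehicle replicates held 15784, 14622, 13412 and 12861 RPKM. 7aaRGD replicates 1 and 4 held 9982 and 7356 RPKM, while replicates 2 and 3 held 13859 and 13159 RPKM and lay within the vehicle range. H2-Aa lay at 1583, 1467, 1331 and 1303 RPKM in vehicle and at 941, 1278, 1226 and 660 RPKM with 7aaRGD (adjusted p = 0.169). The invariant chain Cd74, H2-Eb1 and H2-Ab1 had log2 fold changes of -0.35, -0.47 and -0.44, with adjusted p-values of 0.332, 0.186 and 0.265.

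All 21 tested genes of the type I interferon response, which cells switch on against viruses, were above 0, with a median of 0.21 and none past the threshold. The groups were apart upward in 2 of them (3.97% of all genes). The median was 0.11 without 7aaRGD replicate 2, 0.12 without vehicle replicate 2 and 0.32 without 7aaRGD replicate 3. Ifitm3 lay at 343, 326, 375 and 360 RPKM in vehicle and at 382, 382, 507 and 513 RPKM with 7aaRGD (adjusted p = 0.352). Bst2, Irf7 and Isg15 had log2 fold changes of 0.09, 0.18 and 0.03. Among 20 genes of inflammatory monocytes 14 were above 0, with a median of 0.23, and none passed. Ms4a4c lay at 38.6 ± 11.1 and 57.6 ± 10 RPKM (SD, n = 4, adjusted p = 0.141), and Plac8 and Fn1 had log2 fold changes of 0.65 and 0.32. The median of the monocyte list was 0.072 without 7aaRGD replicate 1, 0.36 without 2 and 0.11 without 4, and 0.13 without vehicle replicate 2.

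Genes of phagocytes that handle lipids at sites of damage had 16 of 23 members below 0 (45.6% of all genes) and a median of -0.13, with none past the threshold. The median was -0.035 after the length correction, -0.074 without 7aaRGD replicate 3 and -0.082 without 7aaRGD or vehicle replicate 4. Apoe lay at 11366 to 15219 RPKM in vehicle and at 9330 to 14890 RPKM with 7aaRGD. Tyrobp, the adaptor of TREM2, lay at 1212 to 1353 RPKM and 1126 to 1203 RPKM (adjusted p = 0.301), and Lyz2 and Ctsd had log2 fold changes of -0.13 and 0.14. Among 23 genes of DNA replication and mitosis 21 were above 0, with a median of 0.13 and none past the threshold. Mki67 lay at 9.32 to 14.2 RPKM in vehicle and at 7.54 to 17.0 RPKM with 7aaRGD, and Pcna, Mcm3 and Hmgb2 had log2 fold changes of 0.06, 0.12 and -0.17. The list median was 0.031 without 7aaRGD replicate 4, 0.069 without 2 and 0.34 without 3, and 0.20 without vehicle replicate 3.

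Transcripts that mark other cell types overlapped between the groups when summed. All 9 tested genes of NK and cytotoxic cells were below 0, with a median of -0.37 and none past the threshold. The median was -0.16 without vehicle replicate 2, -0.23 without 7aaRGD replicate 1, and -0.63 or -0.13 with a pseudocount of 0.1 or 5. Their summed level, most of it from Ccl5, was 116 to 281 RPKM in vehicle and 82.3 to 226 RPKM with 7aaRGD. Gzmb lay at 0.402, 3.70, 1.53 and 2.49 RPKM in vehicle and at 0.566, 1.39, 2.91 and 0.435 RPKM with 7aaRGD, and Gzma and Nkg7 lay at or below 5.88 and 1.46 RPKM. The summed neutrophil genes held 228 to 458 RPKM and 129 to 385 RPKM, and the summed oligodendrocyte genes held 48.6 to 65.6 RPKM and 50.8 to 53.6 RPKM, with overlap in both. The part of these cells in the results above was not tested.

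**Figure D5:**
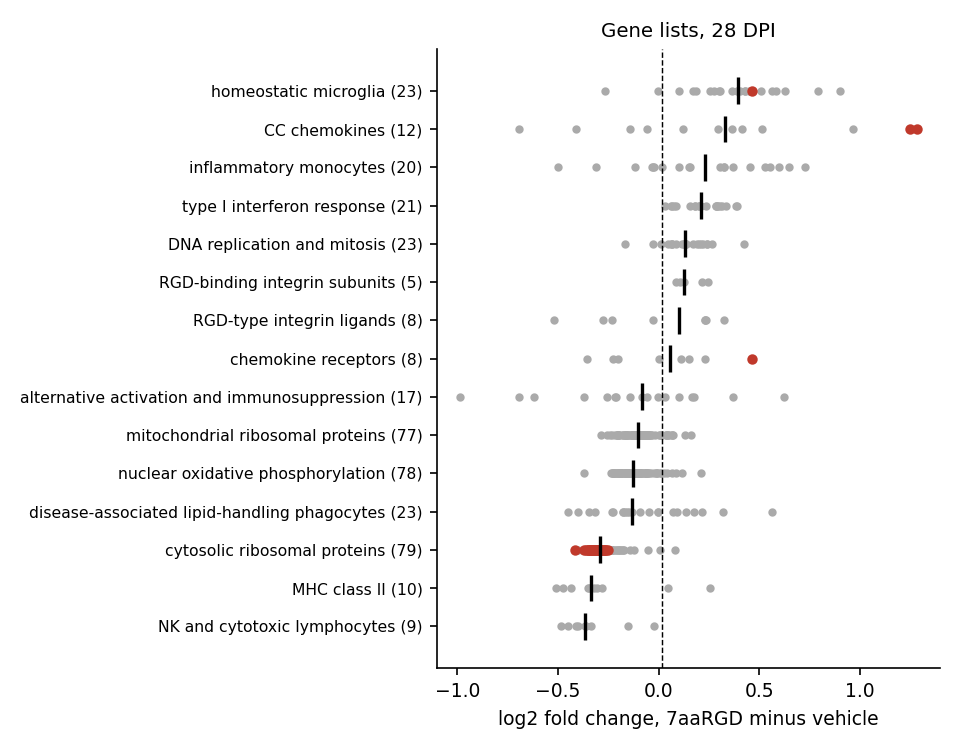
Log2 fold changes, 7aaRGD minus vehicle (horizontal axis), of the members of 15 gene lists, with the number of tested members in brackets, genes past the threshold in red, others in grey, the list median as a black bar and the median of all genes as a dashed line. The ribosomal proteins have 42 of 79 genes in red, and the other lists have at most 2.

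The same table allowed the peptide's change to be set beside the change it made on top of anti-PD-1. No gene passed the test of the difference between these changes (limma, 0 of 9734, 0.00% of genes), and 794 had an unadjusted p under 0.05 (8.16%). The comparison of the combination with anti-PD-1 alone used other animals. In it, 78 of 79 ribosomal protein genes were below 0 (61.1% of all genes), the groups were apart downward in 59 (15.3% of all genes), the median was -0.22, and none passed the threshold, beside 0.0205% of all genes. The summed ribosomal level was 24480 to 26553 RPKM with anti-PD-1 and 20986 to 23057 RPKM with the combination. Relative to the shared vehicle group, the list median was -0.29 with 7aaRGD, -0.48 with anti-PD-1 and -0.70 with the combination. Against that group 75 of the 79 genes were lower past the threshold with anti-PD-1 (12.2% of all genes) and 76 with the combination (25.8% of all genes).

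Of the 12 CC chemokines, 5 were higher past the threshold with anti-PD-1 (10.8% of all genes) and 7 with the combination (17.5% of all genes), against the same vehicle group. Ccl2 lay at 41.6, 45.6 and 43.7 RPKM with anti-PD-1 and at 37.8, 45.5 and 48.1 RPKM with the combination, which overlapped. Ccl7 lay at 30.2, 28.3 and 36.0 RPKM with anti-PD-1 and at 35.5, 41.5 and 38.2 RPKM with the combination. The difference of the peptide's changes with and without anti-PD-1 was -1.25 ± 0.35 for Ccl2 and -1.0 ± 0.29 for Ccl7 on the log2 scale (SE, adjusted p = 0.587 for both). Cx3cr1 lay at 315 to 386 RPKM with anti-PD-1 and at 434 to 446 RPKM with the combination, and Mt1 lay at 31.1 to 35.1 RPKM and 26.3 to 31.3 RPKM.

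At 21 DPI, 3 vehicle and 3 7aaRGD samples, each pooled from 2 mice, had been scaled in a table of their own, so levels are set side by side and no difference was tested. The pumps had run for 21 days, and the study names no antibody injections for this experiment. The labels call the mice of the 21 DPI samples C57BL6. The ribosomal protein genes were below 0 in 6 of 79 there (42.3% of all genes), with a median of 0.04 and none past the threshold, beside 0.148% of all genes in either direction. Their summed level was 25080 to 27148 RPKM in vehicle and 25583 to 28583 RPKM with 7aaRGD at 21 DPI, and the groups overlapped. Ccl7 had a log2 fold change of -0.09, Ccl2 of 0.53, Cx3cr1 of 0.52 and Mt1 of -0.11 at 21 DPI, where none of the 4 passed the threshold. Arg1 had a log2 fold change of -2.15 at 21 DPI (adjusted p = 0.190) and of -0.21 at 28 DPI.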

How the data were processed

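RNA of sorted CD11b+ cells was sequenced from stranded poly(A) libraries. Read trimming used Trimmomatic, alignment to mm10 used STAR, and strand-aware counting used HTSeq-count (0.11.1), as the study's methods state. The authors deposited RPKM values raised by a constant of 2. This unit was inferred from the table, in which 49.8% of values equal 2 and the rest, less 2 and times exon length, add up to similar totals across samples. Between 5.12% and 7.76% of values per sample lay below the constant, and the residuals lack 1 dimension; no source used here describes the step behind either.

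Here 2 was subtracted and symbols were matched to GENCODE vM21 (98.7% of 54513 rows). Then limma 3.58.1 (R 4.3.3, lmFit, eBayes with trend) was run on log2(RPKM + 1). It was first checked on simulated data with independent noise and changes larger than those of the ribosomal genes. That check could not bear on the small shared changes here, because its genes did not move together. Genes were named by rule: the 15 largest rises and 15 largest falls past the threshold, up to 4 members of each list described, and genes of the study's question; some genes that the rule names are not reported here. The members and lists were chosen with earlier results of these data known. The labels do not say whether replicate numbers pair animals, and the main fit treated the animals as unpaired. P-values cover the spread between animals of 1 experiment.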

Additional observations from a re-analysis of the deposited data

Results flagged for a closer look

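Of 166 groups of 4 values examined, 8 held a sample whose gap to the nearest other sample, divided by the range, was above Dixon's 95% critical value, and chance gives about 1 in 20. In vehicle, Rpl11 was 233.8 RPKM in replicate 4 against 250.1 to 253.1 in the others, Mrps21 was 45.36 RPKM in replicate 3 against 34.67 to 36.27, and Mrpl54 was 32.75 RPKM in replicate 1 against 39.74 to 41.17. The level of the shortest genes minus that of the longest was 0.1629 in vehicle replicate 3 against 0.07189 to 0.08097, on the log2 scale. With 7aaRGD, Rtl8a was 2.495 RPKM in replicate 2 against 2.939 to 3.021, and Rpl11 was 186.6 RPKM in replicate 4 against 197.1 to 198.6. Ctsd was 1277 RPKM in replicate 2 against 1890 to 1952, and Fcrls was 203.7 RPKM in replicate 4 against 62.49 to 65.21.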

How the results depend on the processing

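Against 63 genes past the threshold, 62 were counted with a pseudocount of 0.1, 83 with 5, 66 without a filter, 90 from a mean of 5 RPKM, 84 with robust moderation and 93 over all named genes. The count was 0 with TMM factors, 0 over the 8 samples alone, 0 with 1 residual degree of freedom less and 0 over the 8 samples with a length correction, an alternative added after seeing the data. It was 18 with median-of-ratios factors, 1 with the length correction and 144 at a threshold of 0.1, where 35.4% were higher against 19%. Leaving out 1 sample of the 14 gave 0 to 66: 0 or 1 without any of the 8, 5, 14 and 66 without anti-PD-1 replicates 1, 2 and 3, and 62, 13 and 20 without combination replicates 1, 2 and 3. With the replicate number as a block the count was 0. The labels do not say what the numbers stand for. Same-numbered vehicle and 7aaRGD samples correlated at -0.41 to -0.06 in their deviations. Of the 19 same-numbered pairs of the table, 3 correlated over 0.1 (0.37 and 0.28 for 7aaRGD with combination replicates 3 and 2, 0.24 for vehicle with anti-PD-1 replicate 1). Among the vehicle samples, 0 of the 4 7aaRGD samples correlated best with its own number. These correlations cannot show whether the numbers pair animals, because the step behind the missing residual dimension is not described. For the difference of the peptide's changes, leaving out 1 sample gave 0 to 3 genes, 3 of them without combination replicate 2, and the other alternatives gave 0. With the length correction, Cox6b1 turned to 0.10, Cox6a1 to 0.085, Mrps21 to 0.081, Tyrobp to 0.012 and Mrc1 to -0.0072 on the log2 scale. Leaving out 1 sample turned genes that were not past the threshold, with ranges of -0.15 to 0.017 for Mrps21, -0.21 to 0.89 for Chil3, -0.14 to 0.26 for Isg15, -0.036 to 0.47 for Spp1, -0.076 to 0.0055 for Tgfb1, -0.52 to 0.053 for Arg1, -0.045 to 0.23 for Pcna, -0.0097 to 0.22 for Mcm3, -0.19 to 0.42 for Itgb3 and -0.24 to 0.19 for Mrc1. The ribosomal median was -0.30 to -0.27 without each of the 8 animals. The cause of these changes was not tested. Depth is unknown here, so no counting error could be given.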

Other observations

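Of 20 tested genes of ER stress and the unfolded protein response, which cells use when proteins misfold, 15 had a log2 fold change above 0 with 7aaRGD, with a median of 0.16, or 0.071 without 7aaRGD replicate 4, and none past the threshold. Of 12 complement genes 10 were above 0, with a median of 0.18, or 0.11 without vehicle replicate 1, and none passed. The 21 tested genes that interferon-gamma induces had 10 members above 0 and a median of -0.01, which ran from -0.15 without 7aaRGD replicate 2 to 0.087 without 7aaRGD replicate 3. Of 10 glucocorticoid-responsive genes 7 were below 0, with a median of -0.11 and none past the threshold. That median was 0.039 without 7aaRGD replicate 2, -0.21 without 1 and -0.17 without 4.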
